A study of Mus musculus with 12 samples.

Results

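The mRNA of 10 genes of bile acid synthesis, conjugation and uptake was followed in mouse liver across 4 genotypes that differ in the activity of Nrf2. The genes were Cyp7a1, Cyp8b1, Cyp27a1, Cyp7b1, Akr1d1, Hsd3b7, Baat, Slc27a5, Slc10a1 and Nr0b2. A probe set counted for a gene where the annotation gave that gene's symbol and no other, and on this basis all 10 were measured, by 15 of 8554 such probe sets. Cyp7a1, Cyp7b1, Akr1d1, Baat and Slc10a1 had 2 probe sets each and the others 1. Each gene was tested on its brightest probe set, among 5856 genes.

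All mice were untreated 8-week-old males on a C57BL/6 background, with 3 mice and 3 arrays of whole liver RNA per genotype, 12 arrays in all. Wild-type mice were the controls. Nrf2-null mice lack Nrf2, the transcription factor encoded by Nfe2l2, and Keap1-KD mice have less Keap1, the protein that marks Nrf2 for degradation, throughout the body. Keap1-HKO mice came from a cross of Keap1-KD mice with AlbCre+ mice, which make Cre recombinase in hepatocytes alone, so that other liver cells keep the knockdown state. Nrf2-null and Keap1-KD mice had been backcrossed to C57BL/6. The replicates were separate mice, and which litters or cages they came from is not given in the sources used here, so that p-values measure the spread between these mice only.

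Hepatocytes make bile acids from cholesterol. In the classic route Cyp7a1 sets the pace, Hsd3b7 and Akr1d1 reshape the sterol rings, and Cyp8b1 decides how much cholic acid is formed. The alternative route runs through Cyp27a1, which oxidizes the side chain, and Cyp7b1. Slc27a5 and Baat then join bile acids to taurine or glycine, and Slc10a1 (Ntcp) takes them back up from portal blood. Nr0b2 (SHP) is a receptor-like repressor that bile acids induce through the nuclear receptor Fxr (Nr1h4), and it lowers transcription of Cyp7a1 and Cyp8b1. Cyp7a1 mRNA is also known for a strong daily rhythm.

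On the mouse assembly GRCm38.p6, RefSeq places Cyp7a1 at chr4:6265612-6275632, Cyp8b1 at chr9:121914356-121916305 and Slc10a1 at chr12:80953185-80968705. Promoters of 300 bases, from 250 before to 50 after a start site, were at hand from RefSeq for 6 of the 10 members (Cyp8b1, Cyp27a1, Akr1d1, Hsd3b7, Slc10a1 and Nr0b2), with 7 start sites in all, and not used here for Cyp7a1, Cyp7b1, Baat and Slc27a5. They were searched on both strands for TGACNNNGC, the core antioxidant response element of the study, for CAAGGTCA, the type of site bound by Nr5a2, and for AGGTCA, the single nuclear receptor element, which CAAGGTCA contains. Of the 7 promoters 3 held a match, and these are printed below 5′ to 3′ in the direction of the gene, with the match in capitals: Cyp8b1 (chr9:121916256-121916555, minus strand) holds TGACNNNGC on the opposite strand, Akr1d1 (chr6:37529923-37530222, plus strand) holds AGGTCA at 2 places on the opposite strand, and the downstream start of Slc10a1 (chr12:80968030-80968329, minus strand) holds AGGTCA once.
Cyp8b1: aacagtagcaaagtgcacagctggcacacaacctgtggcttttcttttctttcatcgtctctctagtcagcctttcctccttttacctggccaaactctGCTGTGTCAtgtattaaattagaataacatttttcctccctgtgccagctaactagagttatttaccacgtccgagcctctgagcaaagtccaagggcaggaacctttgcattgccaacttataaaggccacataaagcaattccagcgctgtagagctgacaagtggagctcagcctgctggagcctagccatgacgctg
Akr1d1: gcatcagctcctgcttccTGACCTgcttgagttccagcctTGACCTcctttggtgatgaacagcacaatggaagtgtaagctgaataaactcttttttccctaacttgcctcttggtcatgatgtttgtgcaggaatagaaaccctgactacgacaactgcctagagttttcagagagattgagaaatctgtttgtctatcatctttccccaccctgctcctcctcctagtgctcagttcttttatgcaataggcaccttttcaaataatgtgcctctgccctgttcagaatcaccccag
Slc10a1: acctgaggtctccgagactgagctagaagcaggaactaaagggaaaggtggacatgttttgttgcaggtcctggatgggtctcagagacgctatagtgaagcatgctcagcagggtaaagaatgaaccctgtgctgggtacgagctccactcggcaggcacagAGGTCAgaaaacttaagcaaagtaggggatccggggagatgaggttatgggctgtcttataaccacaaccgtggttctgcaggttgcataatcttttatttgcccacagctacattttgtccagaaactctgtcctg
Of 32851 mouse promoters of this length, 12.4% held TGACNNNGC, 1.56% CAAGGTCA and 16.3% AGGTCA. A match describes the letters only.

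The targeted genes followed the genotypes. Against wild-type mice, Nfe2l2 mRNA fell by 6.55 on the log2 scale in Nrf2-null mice, Keap1 mRNA fell by 2.16 in Keap1-KD mice, and it fell by 4.51 in Keap1-HKO mice (limma, adjusted p = 1.21e-08, 0.000179 and 2.98e-08). Nqo1, a classic Nrf2 target, rose by 2.09 in Keap1-KD and by 5.28 in Keap1-HKO mice (adjusted p = 0.0373 and 2.61e-06). Since one mean of each comparison lay under an intensity of 100, the folds are bounds: at least 4.77-fold lower for Nfe2l2, at least 2.33-fold lower for Keap1 in either genotype, and at least 1.15-fold and 10.5-fold higher for Nqo1. Nfe2l2 mRNA was also called lower in Keap1-HKO mice, by 0.70 (adjusted p = 0.0480 by limma), with both means above 100. One array of Keap1-HKO mice, replicate 1, and one of Nrf2-null mice, also replicate 1, lay far from their groups, with mean absolute deviations of 0.901 and 0.580 (log2), where the remaining 10 arrays had 0.147 to 0.561. Of 10 pancreas acinar genes 8 were measured, with a median of 13.6 and 10.3 on Keap1-HKO replicates 2 and 3 and of 2.30 to 2.66 on the other arrays. Of 9 skeletal muscle genes 6 were measured, with a median of 11.4 and 9.82 on the same pair, 11.2 on Wild-type replicate 2 and 2.41 to 3.04 elsewhere. Of 8 hepatocyte markers 7 were measured and none lay under an intensity of 100 on any array. Their summed intensity was 283763 to 319058 on Keap1-HKO arrays and 336506 to 359160 on wild-type arrays. None of 6 cholangiocyte markers was in the table.

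Of the 10 members 1, Cyp7a1, the rate-limiting enzyme of bile acid synthesis, passed the test in Keap1-HKO against wild-type mice, where 3.94% of all 5856 genes passed, and no other member passed in any comparison. On its brighter probe set the log2 intensities were 9.03, 8.51 and 10.03 in wild-type mice and 7.70, 8.55 and 9.33 in Nrf2-null mice. They were 6.02, 7.23 and 5.11 in Keap1-KD mice and 5.11, 6.97 and 6.23 in Keap1-HKO mice. All 6 arrays with less Keap1 thus lay below all 6 arrays of the other genotypes, while Nrf2-null and wild-type arrays overlapped. In Keap1-HKO mice Cyp7a1 mRNA fell by 3.08 on the log2 scale (SE 0.66, 95% interval −4.55 to −1.62, adjusted p = 0.0291 by limma), or −87.8% ± 4.08 (SEM, n = 3) in mean intensity. In whole liver, fewer cells of a type and less RNA per cell cannot be told apart.

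In Keap1-KD mice the difference was of the same size, −3.07 (SE 0.66, 95% interval −4.54 to −1.60), or −87.1% ± 5.37 (SEM, n = 3) in mean intensity, but it did not pass (adjusted p = 0.50 by limma, unadjusted p = 0.000862). By its p it stood in place 10, and by its size in place 7, of 5856 genes in that comparison, in which 4 genes passed. The methods' Duncan test called it lower. The Keap1-KD and Keap1-HKO means, 83.1 and 78.4 in intensity, lay under 100, the limit that the study set for an expressed probe, so that Cyp7a1 was at least 6.44-fold lower than the wild-type mean of 644 in each. A difference between these genotypes could thus not be measured above background, and the fitted value was −0.01, with a 95% interval of −1.48 to 1.45 that leaves room for a sizeable difference either way (adjusted p = 0.993 by limma). In Nrf2-null mice the difference was −0.66 (95% interval −2.13 to 0.80, adjusted p = 0.823 by limma).

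**Figure D1:**
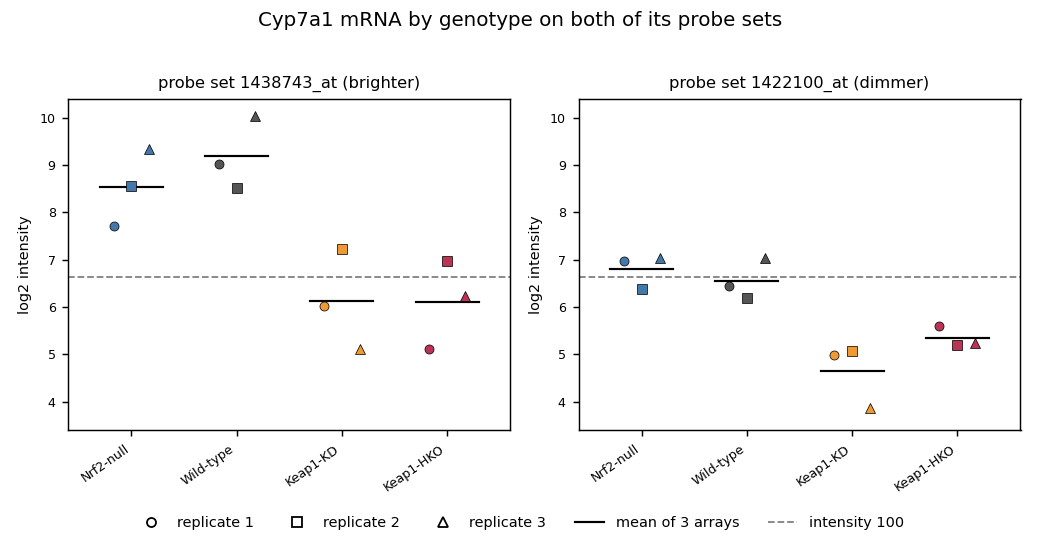
Cyp7a1 on its brighter (left) and dimmer (right) probe set, as log2 intensity by genotype, with 1 symbol per array shaped by replicate, a bar at the mean of 3 arrays and a dashed line at an intensity of 100. On both probe sets every Keap1-KD and Keap1-HKO array lies below every Nrf2-null and wild-type array. The dimmer probe set passed the intensity filter through Nrf2-null mice alone, so that it gives no separate support.

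The dimmer probe set of Cyp7a1 was near background. Its log2 intensities were 6.45, 6.18 and 7.04 in wild-type and 6.98, 6.38 and 7.03 in Nrf2-null mice, then 4.99, 5.07 and 3.86 in Keap1-KD and 5.60, 5.20 and 5.24 in Keap1-HKO mice. The 6 lower arrays were the same as on the brighter probe set and did not overlap the 6 higher arrays. Within these genotype pairs the order differed, as all Keap1-HKO arrays lay above all Keap1-KD arrays and the Nrf2-null mean lay above the wild-type mean. It passed the study's filter on intensity through Nrf2-null mice alone, with a mean intensity of 113 against 97.2 in wild-type mice, and the Keap1-KD and Keap1-HKO means were 26.7 and 41.0. As only Nrf2-null mice passed 100, no difference, fold or test is given for it, and its separation gives no separate support.

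The study ordered the genotypes as graded Nrf2 activity, from Nrf2-null over wild-type and Keap1-KD to Keap1-HKO mice, and a linear trend was tested along that order. Cyp7a1 mRNA fell by 1.03 on the log2 scale per step (SE 0.21, adjusted p = 0.0121 by limma). The group means of Cyp7a1 did not follow the line: they were 8.53, 9.19, 6.12 and 6.11 in that order, with the step between wild-type and Keap1-KD mice. The trend passed with each of the 12 arrays left out in turn, with adjusted p between 0.00878 and 0.0474.

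The call of Cyp7a1 in Keap1-HKO against wild-type mice rested on few arrays. The difference stayed between −3.52 and −2.59 with each array left out in turn, but the adjusted p was above 0.05 in 6 of these 12 fits. It was 0.0839, 0.0581 and 0.126 without Wild-type replicates 1, 2 and 3, 0.0509 without Keap1-KD replicate 1, and 0.0641 and 0.0683 without Keap1-HKO replicates 1 and 3. With both arrays that lay far from their groups left out the difference was −2.59 and still passed (adjusted p = 0.0278 by limma). Without Wild-type replicate 2 and Keap1-HKO replicates 2 and 3, which held muscle or pancreas transcripts, it was −4.41 (adjusted p = 0.0192 by limma), a fit chosen after seeing the data in which the single Keap1-HKO array left, itself far from its group, is assumed to vary like the other genotypes.

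**Figure D2:**
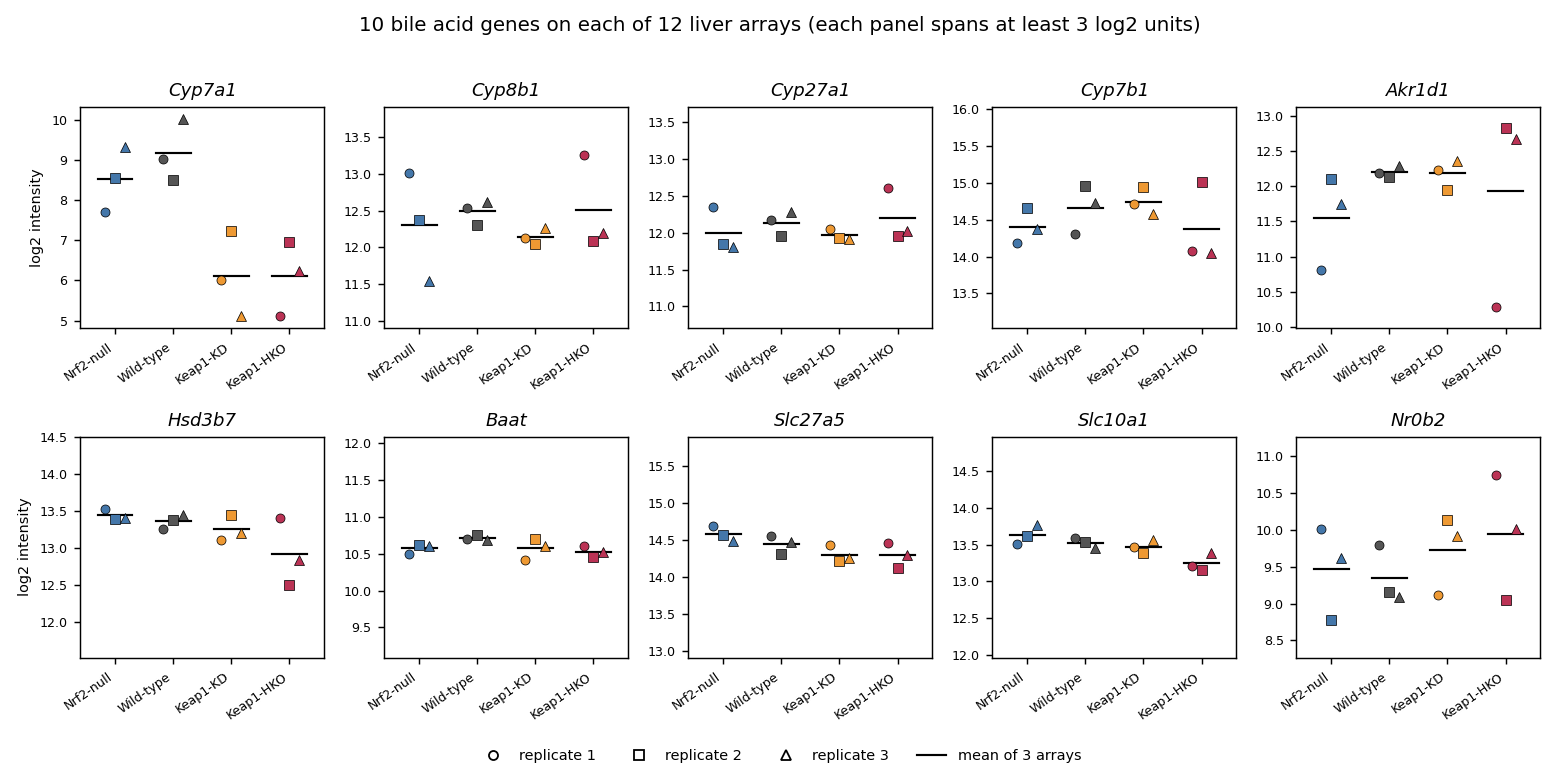
Log2 intensity of each of the 10 members by genotype, with 1 symbol per array shaped by replicate and a bar at the mean of 3 arrays; panels have their own axes. Cyp7a1 is the only member with Keap1-KD and Keap1-HKO arrays all below the others, while Akr1d1 spreads from 10.29 to 12.82 within Keap1-HKO mice.

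Counted over the 10 members, limma called 0 in Nrf2-null, 0 in Keap1-KD and 1 in Keap1-HKO against wild-type mice, 0 in Keap1-HKO against Keap1-KD mice and 1 in the trend, both calls being Cyp7a1 and lower. Over all 5856 genes these comparisons called 0.410%, 0.0683%, 3.94%, 1.43% and 9.20%. At an unadjusted p under 0.05 the counts were 0, 1 (Cyp7a1), 2 (Cyp7a1 and Slc10a1), 0 and 4 (Cyp7a1, Hsd3b7, Slc27a5 and Slc10a1), all lower, beside 6.92%, 2.54%, 18.6%, 12.8% and 22.0% of all genes. The methods' Duncan test on log2 values called 0 members in Nrf2-null, 1 (Cyp7a1) in Keap1-KD, 2 (Cyp7a1 and Slc10a1) in Keap1-HKO mice and 1 (Slc10a1) between the last 2 genotypes, without adjustment over genes, beside 5.40%, 2.25%, 12% and 9.61% of all genes.

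Arrays that do not overlap were also counted. All 3 arrays lay below all 3 wild-type arrays for 2 members in Nrf2-null mice (Akr1d1 and Baat), 2 in Keap1-KD mice (Cyp7a1 and Cyp8b1) and 3 in Keap1-HKO mice (Cyp7a1, Baat and Slc10a1), and for none did they lie above. Over all genes 20.8%, 15.2% and 27.5% did not overlap in these comparisons, in either direction, so that the members' share was near the background. Between Keap1-HKO and Keap1-KD mice 1 member (Slc10a1, below) and 18.7% of all genes did not overlap. The median difference of the members was −0.14, −0.13 and −0.23 against wild-type mice and −0.03 between Keap1-HKO and Keap1-KD mice, beside 0.02, −0.01, −0.01 and −0.00 for all genes. The median slope of the trend was −0.02 for the members and −0.02 for all genes. The comparisons with wild-type mice share the same 3 control arrays.

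**Figure D3:**
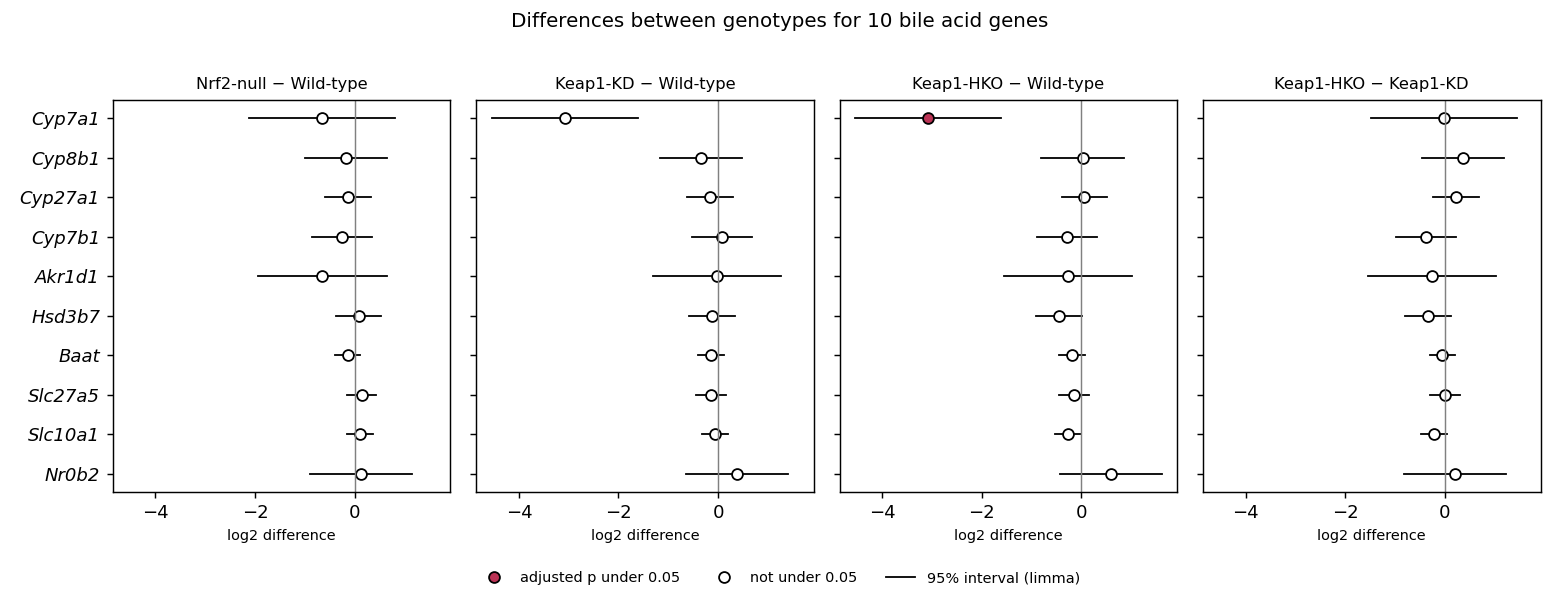
Log2 difference (point) and its 95% interval from limma (line) for each member in 4 comparisons, with filled points where the adjusted p was under 0.05. Only Cyp7a1 in Keap1-HKO against wild-type mice is filled, and its Keap1-KD interval of −4.54 to −1.60 lies equally clear of 0.

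Cyp8b1, the sterol 12-hydroxylase that sets the share of cholic acid, did not pass in any comparison. Its log2 intensities were 12.54, 12.31 and 12.62 in wild-type, 12.13, 12.05 and 12.26 in Keap1-KD and 13.26, 12.09 and 12.19 in Keap1-HKO mice, and 13.01, 12.37 and 11.55 in Nrf2-null mice. The Keap1-KD arrays lay just below the wild-type arrays, by 0.34 (95% interval −1.17 to 0.48, adjusted p = 1 by limma), and so did Keap1-HKO replicates 2 and 3. Keap1-HKO replicate 1 was the highest of all 12 arrays, and the Keap1-HKO mean was 0.02 above wild-type (95% interval −0.80 to 0.85). With that array and replicate 1 of Nrf2-null mice left out it was −0.35 ( adjusted p = 0.319 by limma).

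The side chain enzyme Cyp27a1 and the oxysterol 7-hydroxylase Cyp7b1, which carry the alternative route, did not pass either. Cyp27a1 measured 12.17, 11.95 and 12.28 (log2) in wild-type, 12.35, 11.85 and 11.80 in Nrf2-null, 12.05, 11.93 and 11.92 in Keap1-KD and 12.61, 11.95 and 12.02 in Keap1-HKO mice. All 4 groups overlapped, and the Keap1-HKO difference was 0.06 (95% interval −0.40 to 0.52). Cyp7b1 measured 14.31, 14.96 and 14.73 in wild-type, 14.19, 14.66 and 14.37 in Nrf2-null, 14.72, 14.94 and 14.58 in Keap1-KD and 14.07, 15.01 and 14.05 in Keap1-HKO mice. The Keap1-HKO group held both the highest and the lowest Cyp7b1 arrays, with a difference of −0.29 (95% interval −0.89 to 0.31). The second Cyp7b1 probe set ranged from 13.80 to 14.92 over the same arrays, and its highest and lowest arrays were also Keap1-HKO arrays.

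The ring-modifying enzymes Hsd3b7 and Akr1d1 depended on Keap1-HKO replicate 1. Hsd3b7, the sterol dehydrogenase that acts after Cyp7a1, measured 13.26, 13.38 and 13.44 in wild-type, 13.53, 13.39 and 13.41 in Nrf2-null, 13.11, 13.44 and 13.20 in Keap1-KD and 13.41, 12.49 and 12.84 in Keap1-HKO mice. Keap1-HKO replicates 2 and 3 were the lowest of the 12 arrays, and replicate 1 was level with wild-type. The Keap1-HKO difference was −0.45 (95% interval −0.91 to 0.01, adjusted p = 0.277 by limma). Without Keap1-HKO replicate 1 it was −0.70 and passed (adjusted p = 0.0262), as it did with replicate 1 of Nrf2-null mice left out too (adjusted p = 0.0129 by limma). On the pair of arrays that remained, pancreas and muscle genes were high, and their part in the Hsd3b7 values was not tested. In the only Keap1-HKO array without those transcripts, replicate 1, Hsd3b7 was 0.06 above the mean of Wild-type replicates 1 and 3.

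Akr1d1, the steroid 5-beta-reductase, measured 12.18, 12.13 and 12.29 in wild-type and 12.23, 11.95 and 12.36 in Keap1-KD mice. It measured 10.81, 12.10 and 11.75 in Nrf2-null and 10.29, 12.82 and 12.67 in Keap1-HKO mice, so that both replicates 1 were the lowest, and Keap1-HKO replicates 2 and 3 the highest, of all 12. With all arrays the Keap1-HKO interval ran from −1.56 to 1.02. With these 2 arrays left out the sign turned, and the difference of 0.54 passed (adjusted p = 0.0457 by limma). With Keap1-HKO replicate 1 as the only array of its group, and the spread taken from the other genotypes, it was −1.94 and passed in the opposite direction (adjusted p = 0.0245 by limma), so that the sign depended on which arrays were kept. The dimmer probe set gave the same picture, with 6.86 on Keap1-HKO replicate 1 and 9.51 and 9.93 on replicates 2 and 3 against 8.55 to 8.90 in wild-type mice. The Nrf2-null arrays lay below the wild-type arrays without overlap, by 0.65 (95% interval −1.94 to 0.64, adjusted p = 0.823 by limma).

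**Figure D4:**
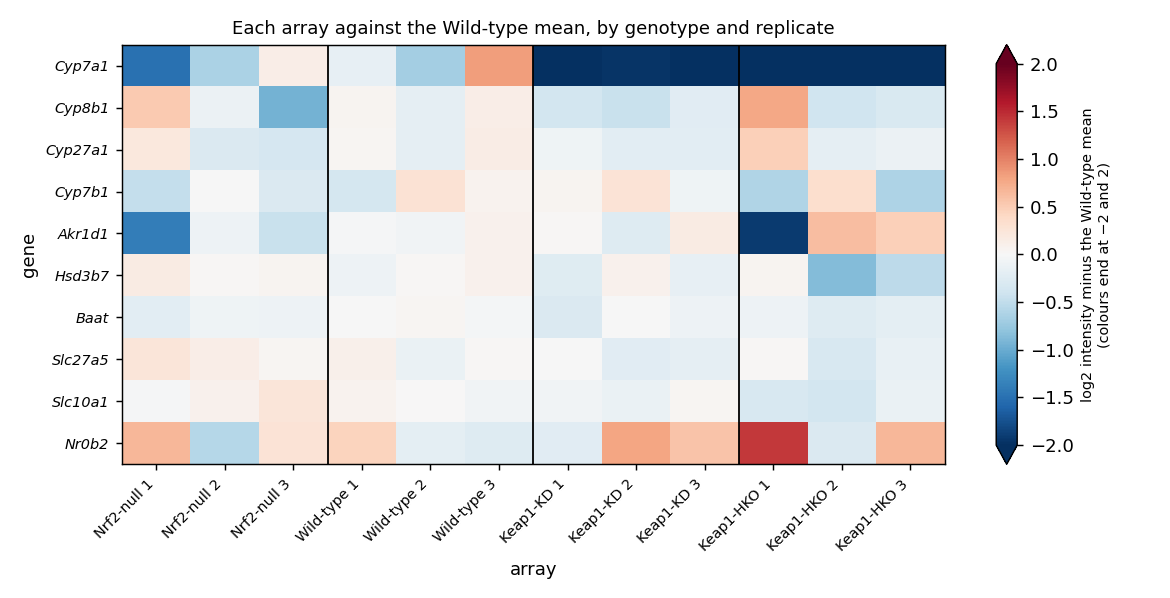
Log2 intensity of each member on each array minus the wild-type mean of that gene, in colour (the scale ends at −2 and 2), with genotypes and replicates along the axis. Cyp7a1 is below the wild-type mean on all Keap1-KD and Keap1-HKO arrays, and Keap1-HKO replicate 1 combines the lowest Akr1d1 value with the highest Cyp8b1, Cyp27a1 and Nr0b2 values.

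The conjugating enzymes and the uptake carrier varied least within genotypes. Baat, which couples bile acids to amino acids, measured 10.70, 10.76 and 10.68 in wild-type, 10.50, 10.62 and 10.61 in Nrf2-null, 10.42, 10.70 and 10.61 in Keap1-KD and 10.61, 10.45 and 10.52 in Keap1-HKO mice. Its Nrf2-null and Keap1-HKO arrays lay below the wild-type arrays, by 0.14 and 0.19 (95% intervals −0.40 to 0.11 and −0.45 to 0.06, adjusted p = 0.823 and 0.377 by limma). The dimmer Baat probe set separated in Nrf2-null mice too, with 7.82, 8.05 and 8.00 against 8.31, 8.28 and 8.22, but overlapped in Keap1-HKO mice. The SD within genotypes was 0.0904 for Baat, 0.130 for Slc27a5 and 0.103 for Slc10a1 on the log2 scale, beside a median of 0.291 over all genes and 0.903 for Cyp7a1.

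Slc27a5, the ligase that prepares bile acids for conjugation, measured 14.55, 14.31 and 14.47 in wild-type, 14.69, 14.57 and 14.49 in Nrf2-null, 14.43, 14.21 and 14.26 in Keap1-KD and 14.46, 14.12 and 14.30 in Keap1-HKO mice. Each genotype overlapped wild-type, and Keap1-KD and Keap1-HKO mice overlapped each other. All Nrf2-null arrays lay above all Keap1-KD and Keap1-HKO arrays, a separation that was not counted over all genes. The Keap1-HKO difference was −0.15 (95% interval −0.44 to 0.15, adjusted p = 0.516 by limma). The trend of −0.10 per step did not pass (unadjusted p = 0.0376, adjusted p = 0.188 by limma).

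Slc10a1, the sodium-dependent uptake carrier, measured 13.59, 13.54 and 13.45 in wild-type, 13.51, 13.62 and 13.77 in Nrf2-null, 13.46, 13.39 and 13.56 in Keap1-KD and 13.21, 13.16 and 13.39 in Keap1-HKO mice. All Keap1-HKO arrays lay below all Keap1-KD and wild-type arrays, by small steps. The difference from Keap1-KD mice was −0.22 (95% interval −0.48 to 0.05, adjusted p = 0.479 by limma) and that from wild-type mice had an interval of −0.54 to −0.01 and did not pass after adjustment. The trend was −0.12 per step (unadjusted p = 0.00992, adjusted p = 0.0850 by limma). The second probe set overlapped, with 11.96, 11.85 and 11.84 in wild-type against 11.89, 11.43 and 11.74 in Keap1-HKO mice.

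Nr0b2, the bile acid-induced repressor, spread widely within every genotype. It measured 9.79, 9.15 and 9.09 in wild-type, 10.01, 8.78 and 9.62 in Nrf2-null, 9.12, 10.13 and 9.92 in Keap1-KD and 10.75, 9.05 and 10.01 in Keap1-HKO mice, so that all groups overlapped. The difference was 0.59 in Keap1-HKO mice (95% interval −0.44 to 1.61, adjusted p = 0.466 by limma), an interval that allows a higher or a slightly lower level. The single highest value, on Keap1-HKO replicate 1, belonged to one of the arrays far from their groups, and without it the Keap1-HKO difference was 0.18.

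The 2 genes whose pattern over the 12 arrays was closest to that of Cyp7a1, by the root mean square difference of centred log2 values, were Nsd3 (1.14) and Tyw5 (1.16), among 591 genes with a comparable spread. These distances are large beside the SD of Cyp7a1 itself (1.65), so that no gene followed it closely. Nsd3 measured 9.09, 9.44 and 8.97 in wild-type, 8.60, 8.56 and 8.46 in Keap1-KD and 6.51, 8.32 and 7.94 in Keap1-HKO mice, a smaller step than that of Cyp7a1 in Keap1-KD mice. For Cyp8b1 the closest of 4430 genes were Slc35f6 (0.173) and Tmem250-ps (0.179), against an SD of 0.45. Both had their highest values, 7.26 and 9.36, on Keap1-HKO replicate 1, as Cyp8b1 did.

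Around the members, 4 lists of related genes were counted. Of 15 other enzymes of bile acid synthesis 11 were measured and limma called 0 in any comparison between 2 genotypes, with a median difference of −0.32 in Keap1-HKO mice. Against wild-type mice, 1 gene was higher and 1 lower in Keap1-HKO mice by unadjusted p (under 0.05), with 0 in the other genotypes, and Duncan's test on log2 values called the same pair there. Duncan's test also called Slc27a2, named here after its values were seen, in Nrf2-null against wild-type mice, and Slc27a2 and Amacr between Keap1-HKO and Keap1-KD mice, where 2 genes were lower by unadjusted p. Duncan's test called 5.40% and 9.61% of all genes in these comparisons, and 12.8% reached the unadjusted p in the latter. The pair in Keap1-HKO mice was Amacr, the racemase of the side chain, with 11.35, 11.02 and 10.95 in Keap1-HKO against 11.45, 11.85 and 11.72 in wild-type mice, and Acox2, the oxidase of side-chain shortening, with 12.45, 11.92 and 12.01 against 11.46, 11.76 and 11.52. The differences were −0.56 and 0.55 (adjusted p = 0.0747 and 0.155 by limma), and in neither gene did the arrays overlap. Of the 11 genes, 1 lay above and 3 below all wild-type arrays without overlap, this pair included, beside 27.5% of all genes. With both arrays far from their groups left out, the differences of Amacr and Acox2 were −0.68 and 0.38 (adjusted p = 0.0117 and 0.0828 by limma), so that Amacr passed. The Keap1-HKO arrays left in that fit were replicates 2 and 3, on which pancreas and muscle genes were high. The part of those genes in the Amacr values was not tested. On Keap1-HKO replicate 1 Amacr measured 11.35.

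Of 10 other transporters of bile acids and organic anions 8 were measured, and here the calls were found. Abcc4, an export pump of the basolateral membrane, measured 5.27, 5.04 and 5.45 in wild-type, 5.37, 4.96 and 5.19 in Nrf2-null, 6.90, 6.72 and 6.51 in Keap1-KD and between 11.88 and 12.23 in Keap1-HKO mice. Nrf2-null and wild-type arrays overlapped, and the other genotypes stood above them and apart from each other. Abcc4 rose by 1.45 in Keap1-KD mice (adjusted p = 0.0108 by limma) and by 6.78 in Keap1-HKO mice (adjusted p = 4.48e-09). Between the latter genotypes it differed by 5.33 (adjusted p = 3.67e-08). Since wild-type mice averaged under 100 in intensity, the Keap1-HKO mean was at least 42.2-fold higher and the Keap1-KD mean only at least 1.05-fold. The Keap1-KD call was lost in 8 of 26 alternatives, among them values under 100 raised to it and Wild-type replicates 1 or 2 or Keap1-KD replicates 1 or 2 left out.

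Abcc3, which exports conjugates to blood, measured 11.20, 10.10 and 10.75 in wild-type, 8.23, 7.43 and 7.69 in Nrf2-null, 11.68, 11.78 and 11.72 in Keap1-KD and 12.90, 12.16 and 12.51 in Keap1-HKO mice. The 4 groups followed each other without overlap. It fell by 2.90 in Nrf2-null mice (adjusted p = 0.00147) and rose by 1.84 in Keap1-HKO mice (adjusted p = 0.00743 by limma), while the Keap1-KD difference of 1.04 did not pass. Both calls were lost when each fit held the 2 groups alone, and the Nrf2-null call was also lost with Duncan's test on un-logged values. Abcc2, the canalicular conjugate pump, measured 11.07, 10.71 and 10.93 in wild-type and 11.43, 11.81 and 11.61 in Keap1-HKO mice and rose by 0.71 (adjusted p = 0.0198 by limma). The call was lost without Wild-type replicate 2 or 3 or Keap1-HKO replicate 2 or 3, and when the fit held these 2 groups alone. It was also lost without the muscle and pancreas arrays, where 1 Keap1-HKO array was left. Over the alternatives the difference ran from 0.43 to 0.80. In Keap1-HKO mice limma thus called 3 of the 8 transporters higher and 0 lower, beside 3.94% of all genes, whereas the median of the 8 was −0.77 beside −0.01 for all genes. In Nrf2-null and Keap1-KD mice 1 of the 8 was called in each, beside 0.410% and 0.0683% of all genes. The remaining measured genes of the list are named here beyond the rule for the lists, and none passed in Keap1-HKO mice. They were the uptake carriers Slco1a1, Slco1b2 and Slco1a4, the canalicular bile salt pump Abcb11 and Atp8b1 (adjusted p = 0.139, 0.279, 0.474, 0.273 and 0.177 by limma). Slco1a1 measured 6.50, 10.88 and 10.37 in Keap1-HKO against 12.23, 12.33 and 12.24 in wild-type mice. Slco1b2 measured 9.19, 12.47 and 12.15 against 12.82, 13.40 and 13.06, and Abcb11 9.44, 10.44 and 10.80 against 10.81, 11.12 and 11.11. Atp8b1 measured 6.59, 8.94 and 8.62 against 9.47, 9.65 and 9.42, and Slco1a4 6.12, 6.86 and 8.48 against 8.76, 7.27 and 7.73. Slco1a4 thus overlapped. All Keap1-HKO arrays lay below all wild-type arrays for 4 of the 8 transporters (Slco1a1, Slco1b2, Abcb11 and Atp8b1). They lay above for 3, beside 27.5% of all genes in either direction. Replicate 1 was the lowest Keap1-HKO array in those 4 genes and in Slco1a4. With both arrays far from their groups left out, Slco1a1, Slco1b2 and Atp8b1 passed (log2 differences −1.64, −0.78 and −0.73, adjusted p = 0.000495, 0.0259 and 0.00593 by limma). Abcb11 and Slco1a4 did not pass there (−0.39 and −0.25, adjusted p = 0.145 and 0.799 by limma). That fit kept Keap1-HKO replicates 2 and 3, on which pancreas and muscle genes were high, and the part of those genes was not tested.

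**Figure D5:**
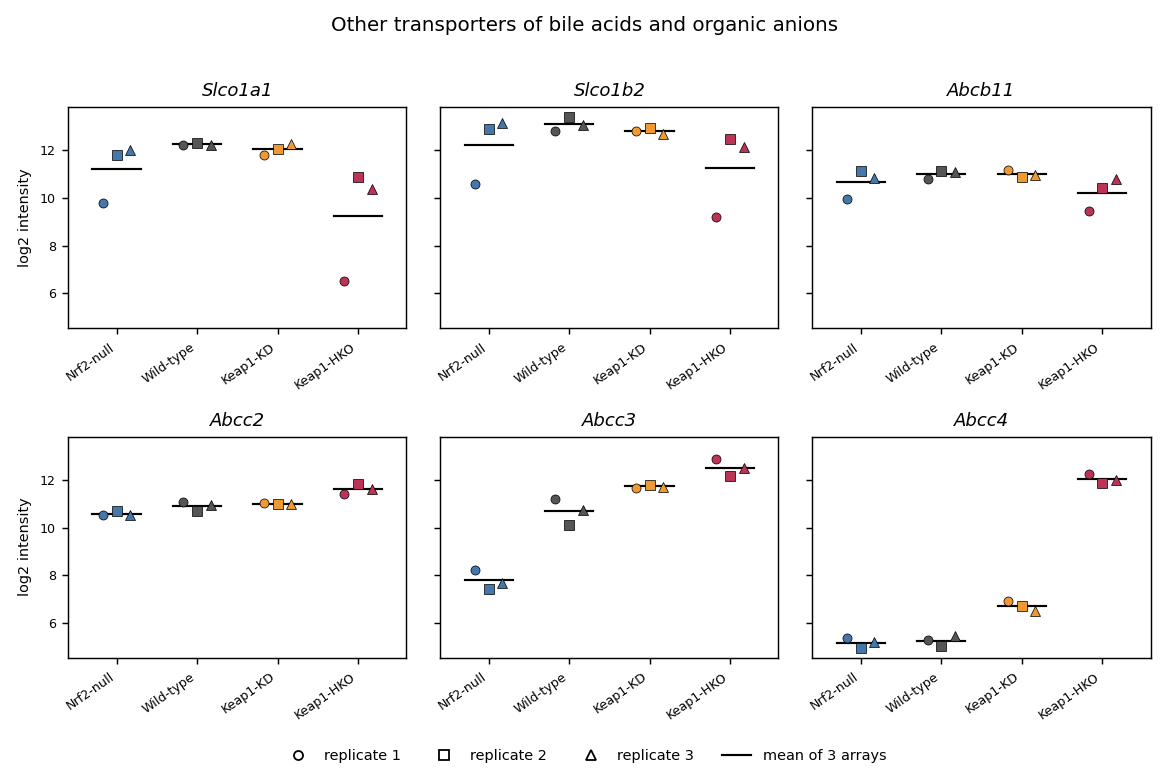
Log2 intensity of 6 other transporters by genotype on 1 common axis, with 1 symbol per array shaped by replicate and a bar at the mean of 3 arrays. Abcc4 reaches 11.88 to 12.23 in Keap1-HKO mice from 5.04 to 5.45 in wild-type mice, and Slco1a1, Slco1b2 and Abcb11 are lowest on Keap1-HKO replicate 1.

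Of 15 regulators of bile acid synthesis 14 were measured and limma called 0 between any 2 genotypes in the main fit. By unadjusted p (under 0.05) 2 were higher and 2 lower in Keap1-HKO mice, 1 was lower in Nrf2-null and 0 differed in Keap1-KD mice, and Duncan's test on log2 values called 1 lower in Nrf2-null mice and, in Keap1-HKO mice, 1 lower and 1 higher. Nr5a2 (LRH-1), which activates Cyp7a1 and Cyp8b1, measured 7.07, 8.43 and 8.58 in Keap1-HKO against 9.51, 9.13 and 9.35 in wild-type mice, a difference of −1.30 (adjusted p = 0.0678 by limma). After a second quantile normalization this difference was called. In Keap1-KD mice Nr5a2 measured 8.97, 9.22 and 8.90, which overlapped wild-type, and the 95% interval of the difference was −1.05 to 0.45. Nr1i3 (CAR) measured 9.75, 8.14 and 9.05 in Keap1-HKO against 7.78, 7.66 and 7.69 in wild-type mice, a difference of 1.27 (adjusted p = 0.134 by limma). In Nrf2-null mice Nr1i3 measured 6.84, 5.45 and 5.76, below all wild-type arrays, and this was the regulator that Duncan's test called lower there (log2 difference −1.69, adjusted p = 0.203 by limma). With both arrays far from their groups left out, Nr5a2, Nr1i3 and Fgfr4 (named beyond the rule for the lists) passed in Keap1-HKO mice. Their log2 differences were −0.82, 0.89 and −0.72 (adjusted p = 0.00676, 0.0377 and 0.0454 by limma). Nr1i3 also passed in Nrf2-null mice (−2.10, adjusted p = 0.00205 by limma). Keap1-HKO replicates 2 and 3 remained, on which pancreas and muscle genes were high. The part of those genes was not tested. With all arrays, Fxr (Nr1h4), through which bile acids act on Nr0b2, differed by −0.42 in Keap1-HKO mice (95% interval −1.10 to 0.26), and was looked up after its values were seen.

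Of 16 clock genes 7 were measured and limma called 0, with 2 lower in Keap1-HKO mice by unadjusted p (under 0.05) and 0 in the other genotypes, both also called by Duncan's test on log2 values. One was Hlf, with 6.06, 5.64 and 6.16 in Keap1-HKO against 6.53, 6.51 and 6.51 in wild-type mice, both under an intensity of 100, so that no difference is given. The other was Cry1, which differed by −0.73 (adjusted p = 0.188 by limma). Dbp, a clock output gene named here after its values were seen, ranged from 5.63 to 9.30 within Nrf2-null, from 6.80 to 8.73 within wild-type, from 6.10 to 8.96 within Keap1-KD and from 6.77 to 9.13 within Keap1-HKO mice. Its range within genotypes thus exceeded 1 on the log2 scale everywhere, which held for no other measured clock gene. Tef, Hlf and Cry1 stayed under 1 within every genotype. Clock and Nr1d2 exceeded 1 in Nrf2-null and Keap1-HKO mice alone, where replicate 1 was the lowest, and Nfil3 did so in wild-type mice. The time of day of tissue collection is not given in the sources used here. The part of collection time in the spread of Cyp7a1 was not tested.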

How the data were processed

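Liver RNA was hybridized to Affymetrix Mouse Genome 430 2.0 arrays, 1 array per mouse. Per the labels and methods, the authors normalized the arrays by gcRMA in R and removed probe sets whose mean intensity did not pass 100 in any group. The deposited values are log2 intensities of 9622 probe sets, with array medians of 8.22 to 8.37. An array gives no read depth, and 3 mice per genotype limit the precision.

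Of 8554 probe sets with 1 gene symbol, that with the highest mean over all arrays stood for each of 5856 genes. The log2 values of 12 arrays were fitted together in R 4.3.3 by lmFit and eBayes of limma 3.58.1 (8 residual and 2.19 prior degrees of freedom), which was first tested on simulated data. Benjamini-Hochberg adjusted p (over all genes) under 0.05 was the call. The trend weights −3, −1, 1 and 3 were divided by 10. Percent changes are of mean un-logged intensities, with the SEM of that genotype's mice only. Groups under an intensity of 100 give folds as bounds against 100.

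The labels number the mice, and what equal numbers share is not given, so that no pairing is established and the main fit had no block. Deviations from the group means correlated weakly by number between Keap1-HKO and Keap1-KD mice (r = 0.215, 0.165 and 0.105 over genes). The sample of the same number was the closest for 2 of 3 Keap1-KD samples. Between Nrf2-null and Keap1-HKO mice the deviations correlated strongly by number (r = 0.787, 0.685 and 0.699), and all 3 samples were closest to their own number. Between Nrf2-null and Keap1-KD mice the correlation was weak (0.290, 0.205 and 0.149). Nrf2-null mice were compared with neither of these genotypes outside the trend. The replicate number as a block changed no member's call in Keap1-HKO against Keap1-KD mice.

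All 10 members were named with every probe set. Of each list the genes called against wild-type mice were named, or else the 2 with the lowest p in Keap1-HKO mice. The members, lists and tests were chosen with earlier results of these data known. Alternatives were other filters, normalizations, probe set rules, variance models, array weights, the groups compared alone, a replicate block, arrays left out and the methods' one-way test with Duncan's multiple range test.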

Additional observations from a re-analysis of the deposited data

How the results depend on the processing

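Of 27 alternatives, 12 left out 1 array, and 1 was chosen after seeing the data. Members called in the comparisons with Nrf2-null mice stayed at 0 in all. The other counts moved as follows. With array weights, estimated gene by gene, the members called were 1 in Keap1-KD, 2 in Keap1-HKO, 1 in Keap1-HKO against Keap1-KD mice and 5 in the trend, while all genes called rose to 41, 964, 415 and 1442 of 5856 from 4, 231, 84 and 539, and the lists held 22 calls in place of 6. When each fit held just the 2 groups compared, Keap1-HKO mice had 0 and the lists 3. Without both arrays far from their groups the members called were 3 in Keap1-HKO, 1 in Keap1-HKO against Keap1-KD mice and 4 in the trend, beside 671, 336 and 1217 of all genes, and the lists held 18 calls. Without the muscle and pancreas arrays, with the single Keap1-HKO array left tested on the spread of the other genotypes (the alternative chosen later), 2 members were called in Keap1-HKO mice (Cyp7a1 and Akr1d1), 1 in Keap1-HKO against Keap1-KD mice (Akr1d1) and 1 in the trend, beside 2255, 2419 and 1725 of all genes, and the lists held 38 calls. A trended, robust variance called 2 members in the trend. The methods' Duncan test called 1 member in Keap1-KD, 2 in Keap1-HKO and 1 in Keap1-HKO against Keap1-KD mice, whether values were logged or not. Over the lists it made 22 (log2) and 18 (un-logged) calls, in which a gene can count in several comparisons. With 1 array left out at a time the members called ranged from 0 to 1 in Keap1-HKO mice and from 1 to 3 in the trend, and the list calls from 4 to 10, the highest without Keap1-HKO replicate 1. The member called in Keap1-HKO mice without Keap1-HKO replicate 1 was Hsd3b7, not Cyp7a1.

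Signs turned for small differences. Cyp7a1 in Keap1-HKO against Keap1-KD mice was 0.51 after a second quantile normalization, 0.0139 after median centring, 0.35 as the mean over probe sets, 0.62 with array weights and 0.48 without both arrays, and ran from −0.52 to 0.54 with 1 array left out. Against wild-type mice, Keap1-HKO differences with array weights were −0.38 for Cyp8b1, −0.20 for Cyp27a1 and 0.42 for Akr1d1, and without both arrays −0.35, −0.15 and 0.54. With 1 array left out they ran from −0.35 to 0.23, from −0.15 to 0.18 and from −0.72 to 0.54. Akr1d1 was 0.0866 on un-logged values, and Hsd3b7 was 0.0604 without the muscle and pancreas arrays. The cause of these turns was not tested. Over single genes, 497 values kept direction and call, 21 turned sign, 18 gained and 7 lost the call, and 7 without a test moved by more than the spread between replicates.

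The replicate number as a block left Cyp7a1 called in Keap1-HKO mice (adjusted p = 0.0265 by limma) and in the trend (0.0123), the members called at 0, 0, 1, 0 and 1, and the lists at 7 with Nr1i3 added. Equal numbers correlated with wild-type mice at 0.164, 0.215 and 0.0722 in Nrf2-null mice. They did so at 0.201, 0.180 and −0.0556 in Keap1-KD and at 0.333, 0.394 and −0.157 in Keap1-HKO mice. The sample with the same number was the closest in 3, 2 and 2 of 3 cases. Whether equal numbers mark a shared batch or litter is not given in the sources used here. Signal over background limits Cyp7a1, whose Keap1-KD and Keap1-HKO means lie under an intensity of 100.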
